A study of Homo sapiens with 2 samples.

Results

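ENC 3′ is a subcluster of 727 cells among the enteric neural crest (ENC) cells of the day 15 crestosphere library. Its members were taken from the deposited cell annotation, as the cells whose cell type was ENC and whose subtype was ENC 3′. They were 727 of the 4907 cells in the 4 numbered ENC subclusters, of 5336 cells that passed the quality filters and of 6320 cells in the library. The authors named the subclusters by number only, so the genes below describe the cells that carry this number.

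The neural crest is a transient embryonic population that leaves the neural tube and gives rise to enteric neurons and glia, Schwann cells, pigment cells and other derivatives. SOX10 is kept in the glial, enteric and pigment lineages. Melanoblasts, the precursors of pigment cells, are known for the transcription factor MITF, the endothelin receptor EDNRB and a set of melanosome genes, among them DCT, PMEL and MLANA, while TYR and TYRP1 come on with pigment production.

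The cells came from H9, an established human embryonic stem cell line, with no treatment beyond the culture media. For the day 15 library, cells induced to ENC as a monolayer had been lifted and grown from day 12 as free-floating spheres in neurobasal medium with FGF2, a small-molecule WNT activator and N2 and B27 supplements. The day 10 library, used here only for comparison, came from adherent cultures on Geltrex during induction, a stage that had included retinoic acid. Each stage was 1 droplet library of single cells, so differences between subclusters have no replicate check, no p-value is given, and the 95% intervals (exact Poisson for levels, exact Clopper-Pearson for shares) cover counting error only. Subclusters had been drawn from the expression of these same cells, which makes every level below a description of the cluster and not a test of it.

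ENC 3′ held 14.8% of the numbered cells (13.8 to 15.8%), against 33.9% in ENC 1′, 48.4% in ENC 2′ and 2.81% in ENC 4′. Its 8194772 UMIs (unique molecules counted) gave a median of 10953 UMIs and 2423 genes a cell. Medians in the other 3 ran from 10290 to 11193 UMIs and from 2113.5 to 2556 genes. The median mitochondrial share was 2.64% in ENC 3′ and 1.93 to 2.86% in the others. Of the barcodes, 102 occurred in both libraries, and 11 of these were ENC 3′ cells.

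The ENC label was set against its marker genes. SOX10, the crest transcription factor, was at 94.5 counts per 1000000 UMIs (CPM) in ENC 1′, 116 in ENC 2′, 90.8 in ENC 3′ (84.4 to 97.6) and 52.8 in ENC 4′. ERBB3, the neuregulin receptor of migrating crest and glial precursors, was at 104, 116, 89.6 (83.2 to 96.3) and 72.6 CPM in the same order. Both genes were thus present in ENC 3′ at levels below those of ENC 2′, and neither set it apart. BNC2, a zinc finger factor, was highest in ENC 3′ at 7.69 CPM (5.91 to 9.84), against 3.21, 2.24 and 6.60 CPM, and its interval overlapped the level in ENC 4′.

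With every cell thinned to 3000 UMIs, a SOX10 UMI was present in 23.1% of ENC 3′ cells (20.1 to 26.3%), an ERBB3 UMI in 24.8% (21.7 to 28.1%) and a BNC2 UMI in 2.61% (1.58 to 4.05%). In the neuro-epithelial progenitors (NEP) of the library, which should lack the first pair, 1 of 104 thinned cells had a SOX10 UMI and 0 of 104 an ERBB3 UMI, a count that leaves room for up to 2.88%. Without thinning the ENC 3′ shares were 58.2% for SOX10, 60.0% for ERBB3 and 7.98% for BNC2, with 4.81% for SOX10 in NEP cells, whose median depth was 10953.5 UMIs. No NEP cell of the 104 held a thinned BNC2 UMI.

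Placode, NEP and epithelial markers were low. The summed level of 12 placode and sensory markers was 76.5 CPM in ENC 3′ and 75.9 to 98.2 CPM in the other subclusters, against 7498 CPM in the placode cluster CP2. The 8 NEP markers summed to 19.3 CPM in ENC 3′ and 353 CPM in NEP cells. Epithelial markers of non-neural ectoderm summed to 10.9 CPM, and no member reached 10 CPM. The 8 mesenchymal markers summed to 197 CPM in ENC 3′ (188 to 207), the highest of the 4, against 131 to 164 CPM in the others and 533 CPM in the library's mesenchymal (Mes) cells. COL1A2, a collagen chain, made up 193 CPM of this sum and was within the fold of the pooled level, while the defining factors TWIST1 and PRRX1 had 0 UMIs in ENC 3′, which allows up to 0.366 CPM, and TWIST1 was at 162 CPM in Mes cells. A wider list of 20 mesenchymal genes summed to 2500 CPM in ENC 3′ (2466 to 2535), 1288 to 2065 CPM in the others and 3722 CPM in Mes cells, with VIM, an intermediate filament gene, at 2215 CPM of it. Of its 7 tested members, 2 were higher and 2 lower, beside 2.21% and 2.76% of all genes tested. Without the CDKN1A-led cells described below, 1 of 6 was higher and 2 lower, beside 2.22% and 2.55% of all genes. The part of mesenchymal cells in other differences was not tested.

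A gene was tested where either ENC 3′ or the pooled cells of ENC 1′, 2′ and 4′ reached 10 CPM, and it was counted as different at 1.5-fold on the ratio of CPM + 1. Of 6621 genes tested, 146 (2.21%) were at least 1.5-fold higher in ENC 3′ and 183 (2.76%) at least 1.5-fold lower. The median log2 ratio was -0.06, and 6292 genes lay within the fold on either side. Against ENC 1′ alone, 3.20% of genes were higher and 5.23% lower. Against ENC 2′ the shares were 2.92% and 3.45%. Against ENC 4′, whose 138 cells held 1516022 UMIs, they were 26.2% and 11.9%, and at a minimum of 50 CPM they were still 19.5% and 11.8%. Of the 146 genes, 58 passed the fold against each of the other 3 subclusters separately, as did 35 of the 183.

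**Figure D1:**
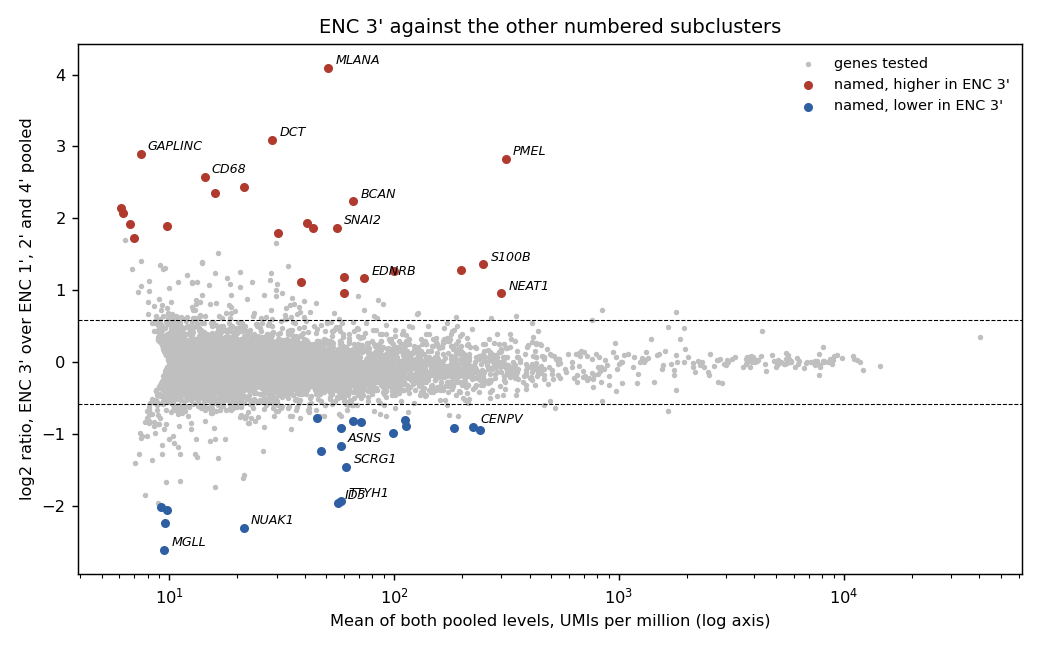
Each point is 1 gene with at least 10 CPM, placed by the mean of its levels in ENC 3′ and in the pooled other subclusters (x, log axis) and by the log2 ratio of CPM + 1 between them (y), with dashed lines at 1.5-fold. Genes named by rank are coloured. MLANA stands highest at a log2 ratio of 4.09 and MGLL lowest at -2.61.

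Pigment lineage genes led the higher side. MLANA, a melanosome membrane protein also known as Melan-A, was at 96.8 CPM in ENC 3′ (90.2 to 104) against 2.69, 5.33 and 19.8 CPM in ENC 1′, 2′ and 4′. DCT, the dopachrome tautomerase of melanin synthesis, was at 52.1 CPM (47.3 to 57.3) against 1.63, 5.74 and 40.9 CPM. PMEL, which forms the fibrils of the early melanosome, was at 551 CPM (535 to 567) against 45.9, 94.6 and 146 CPM. ENC 3′ was therefore the highest of the 4 for all 3 genes, although for DCT its lead over ENC 4′ was a log2 ratio of only 0.34. In RefSeq (GRCh38.p14), MLANA lies at chr9:5890889-5910606, DCT at chr13:94436811-94549406 and PMEL at chr12:55954105-55966709, where PMEL and CDK2 overlap on opposite strands in the GENCODE annotation. The cells of ENC 3′ held 78.0% of all MLANA UMIs in the numbered subclusters, 63.4% of those of DCT and 55.4% of those of PMEL.

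MITF, the transcription factor of the melanocyte lineage, and EDNRB, the receptor for endothelin 3, showed another order. MITF was at 83.7 CPM in ENC 3′ (77.6 to 90.2), with 116 CPM in ENC 4′, 45.2 in ENC 1′ and 25.3 in ENC 2′. EDNRB was at 102 CPM in ENC 3′ (95.2 to 109), with 109 CPM in ENC 4′, 38.0 in ENC 1′ and 46.1 in ENC 2′. ENC 3′ and ENC 4′ shared high levels of both genes, and ENC 4′ was the higher for MITF. Of the 11 melanoblast genes listed, 6 were tested, and 5 were at least 1.5-fold higher in ENC 3′ and 0 lower. Over all genes tested, 2.21% were higher and 2.76% lower. The list median log2 ratio was 2.01 beside -0.06 over all genes. MLANA and DCT, at 4.73 and 5.22 CPM pooled, reached 10 CPM only in ENC 3′, so neither could have been called lower. The member within the fold was ALX1, at 69.7 CPM against 47.3 CPM pooled. TYR, the first enzyme of melanin synthesis, had 5 UMIs in ENC 3′ (0.610 CPM) and TYRP1 had 1, so the genes of full pigment production were near 0. KIT, the receptor for stem cell factor on melanoblasts, was at 9.03 CPM against 4.25 CPM pooled, under the minimum for the test.

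**Figure D2:**
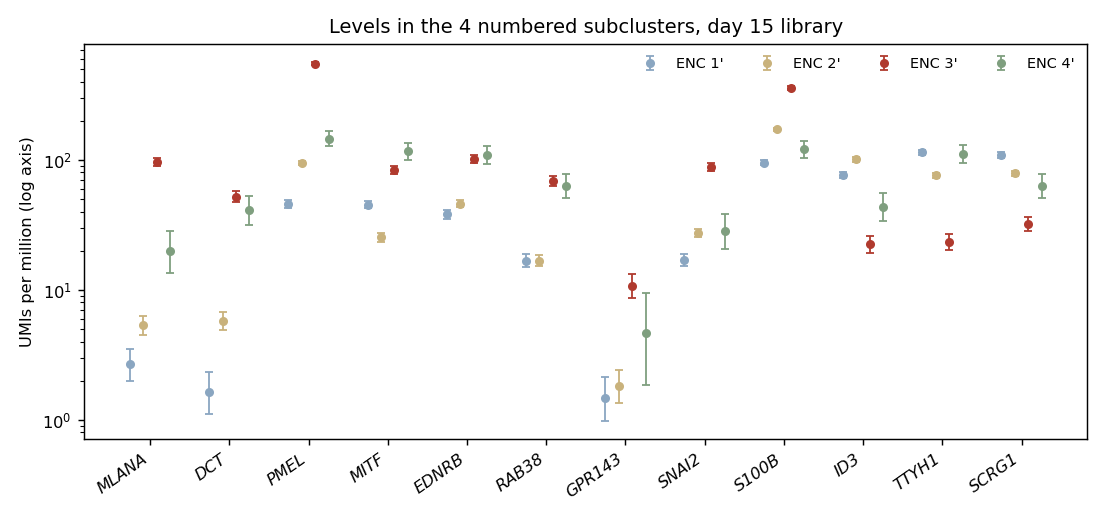
Points give the level of 12 genes in CPM (log axis) in each numbered subcluster, with exact 95% Poisson intervals as bars. ENC 3′ in red is highest for MLANA, DCT, PMEL, SNAI2 and S100B, level with or below ENC 4′ for MITF and EDNRB, and lowest for ID3, TTYH1 and SCRG1.

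Other named genes on the higher side included melanosome and lysosome genes. RAB38, a small GTPase that carries cargo to melanosomes, was at 68.7 CPM (63.1 to 74.6), close to the 63.3 CPM of ENC 4′ and above the 16.7 and 16.8 CPM of ENC 1′ and 2′. GPR143, a melanosome receptor, was at 10.7 CPM (8.61 to 13.2) against 1.47 to 4.62 CPM. CD68, a lysosomal glycoprotein, was at 25.3 CPM against 2.79 to 9.23 CPM, and ACP5, an acid phosphatase, at 37.0 CPM against 2.95 to 9.89 CPM. ASAH1, the lysosomal acid ceramidase, was at 142 CPM but higher still in ENC 4′ at 179 CPM. CTSD, the protease cathepsin D, was at 79.3 CPM against 39.2 to 66.6 CPM.

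Lists of pigment cell and lysosome genes were drawn up after these values had been seen, so their counts are a description. Of 54 pigment cell and melanosome genes listed, 27 were tested, 14 were at least 1.5-fold higher and 0 lower, with a median log2 ratio of 0.59. Of 47 lysosome genes listed, 31 were tested, 11 were higher and 0 lower, with a median of 0.38. Over all genes tested, 2.21% were higher and 2.76% lower. Members under 10 CPM pooled, such as MLANA at 4.73 and CD68 at 3.40 CPM, were tested only through ENC 3′. Those members could not have been called lower. The higher lysosome genes included LAPTM5, a lysosomal membrane protein, at 20.7 CPM against 7.22 CPM pooled. Not every member was higher, and PPT1, a lysosomal thioesterase, was at a log2 ratio of -0.57.

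The remaining named genes on the higher side had varied roles. SNAI2, the crest and melanoblast repressor also known as Slug, was at 87.9 CPM (81.6 to 94.5) against 17.1, 27.6 and 28.4 CPM. S100B, a calcium-binding protein of glia and melanocytes, was at 359 CPM (346 to 372) against 95.3, 172 and 121 CPM. BCAN, the matrix proteoglycan brevican, was at 109 CPM against 17.2 to 49.5 CPM. PHACTR1, an actin regulator, was at 65.4 CPM against 13.0 to 30.3 CPM. NEAT1, a nuclear noncoding RNA, was at 396 CPM (382 to 410), level with ENC 4′ at 382 CPM. GAPLINC, a noncoding RNA, was at 13.9 CPM in ENC 3′, and its 0 UMIs in ENC 4′ allow up to 1.98 CPM there. At the edge of the 15 ranked genes stood NEAT1 at a log2 ratio of 0.96 inside and SESN3 at 0.92 outside.

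The motif CATGTG, read on both strands as CATGTG or CACATG, is an E-box form that MITF is known to bind. It was searched in the 250 bases before each RefSeq start (GRCh38.p14), and 9.42% of 35116 windows held it. Of the 25 genes named as higher, 19 had a window, and 8 of their 40 windows, from 7 genes, held the motif. The 7 genes were DCT, EDNRB, GPR143, ACP5, CD68, IFI16 and PHACTR1. EDNRB had a match beginning 151 bases before a start, and GPR143 had matches at 61 and 33 bases. No match lay in the windows of MLANA or MITF. The 2 windows of DCT are shown because DCT was second in rank and they differ in the motif, with matches in capitals and each read on the gene's minus strand.
DCT upstream start, chr13:94549407-94549656: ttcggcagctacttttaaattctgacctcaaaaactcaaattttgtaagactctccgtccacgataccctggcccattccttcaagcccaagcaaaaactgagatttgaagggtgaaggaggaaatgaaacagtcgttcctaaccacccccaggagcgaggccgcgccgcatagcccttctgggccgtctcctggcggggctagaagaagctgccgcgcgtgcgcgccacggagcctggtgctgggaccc
DCT internal start, chr13:94479683-94479932: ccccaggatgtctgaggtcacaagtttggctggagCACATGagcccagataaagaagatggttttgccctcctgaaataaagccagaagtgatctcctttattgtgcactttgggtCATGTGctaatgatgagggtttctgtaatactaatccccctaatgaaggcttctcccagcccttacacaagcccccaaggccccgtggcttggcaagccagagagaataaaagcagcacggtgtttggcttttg
The first held no match, and the second held matches beginning 215 and 134 bases before its start. The second start is internal to the RefSeq span of DCT, while its window does not lie within DCT in the GENCODE annotation. A match in these letters is a description and does not show a bound site, and the 3′ counts do not tell which start was used.

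On the lower side, ID3, an inhibitor of basic helix-loop-helix factors and a common BMP target, had the smallest ratio among genes of 50 CPM or more. It was at 22.5 CPM in ENC 3′ (19.3 to 25.9) against 77.0, 101 and 43.5 CPM. TTYH1, a membrane protein of neural progenitors, was at 23.4 CPM against 114, 76.2 and 111 CPM. SCRG1, a secreted peptide gene, was at 32.3 CPM (28.6 to 36.5) against 109, 78.6 and 63.3 CPM. ENC 3′ was the lowest of the 4 for each of these. The low levels were uneven within it. In the CDKN1A-led cells described below, ID3 was at 66.9 CPM and TTYH1 at 56.1 CPM. In the other ENC 3′ cells they were at 14.7 and 17.8 CPM. SFRP1, a secreted WNT antagonist, was at 27.9 CPM, below ENC 1′ (54.7) and ENC 2′ (78.0) but above ENC 4′ (19.8).

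Lower genes of the 10 to 50 CPM range included cartilage and matrix genes. COL9A1, a collagen chain, was at 3.05 CPM against 7.92 to 16.5 CPM. MIA, a secreted protein gene known from cartilage and melanoma, was at 3.17 CPM against 8.58 to 21.2 CPM. FRZB, another WNT antagonist, was at 2.68 CPM against 7.26 to 17.2 CPM. NUAK1, a kinase, was at 6.59 CPM (4.95 to 8.60) against 29.7 to 44.3 CPM. MGLL, the monoglyceride lipase, was at 1.95 CPM (1.12 to 3.17) against 12.8 to 23.2 CPM. All 5 were lowest in ENC 3′.

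**Figure D3:**
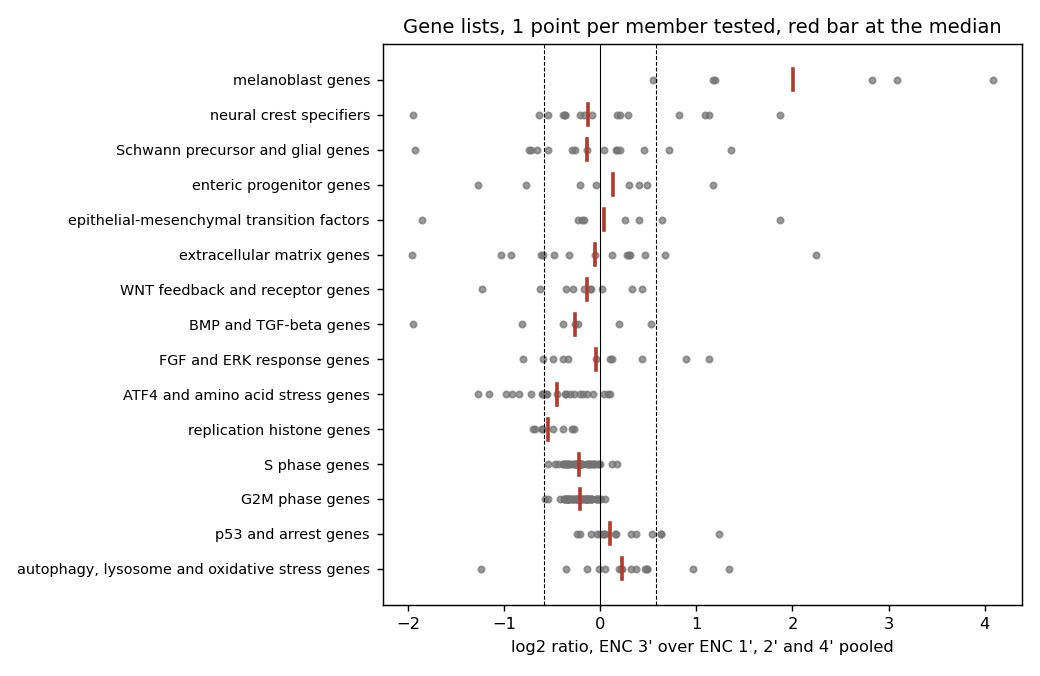
Each grey point is the log2 ratio of 1 tested member of a gene list in ENC 3′ over the pooled other subclusters, red bars are list medians and dashed lines mark 1.5-fold. The melanoblast list, with MLANA and DCT tested only through ENC 3′, has a median of 2.01. The S and G2M lists sit within the fold at -0.22 and -0.21.

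Crest genes were mixed. Over all genes tested, 2.21% were higher in ENC 3′ and 2.76% lower. Of 16 crest specifiers tested, 4 were higher and 2 lower, with a median of -0.13. The higher ones were SNAI2, RXRG, MYC and ETS1, and the lower ones were ID3 and the nuclear receptor NR2F2 (79.1 against 123 CPM pooled). ETS1, a factor of delaminating crest, was at 41.4 CPM against 18.9 CPM pooled. Among 8 factors of epithelial-mesenchymal transition tested, SNAI2 and SOX4 were higher and ZEB1 was lower, at 2.81 CPM against 7.53 to 23.7 CPM, while ZEB2 was within the fold at 163 against 123 CPM pooled. Without the CDKN1A-led cells described below, 1 of 8 factors was higher and 1 lower, beside 2.22% and 2.55% of all genes. SNAI2 kept a log2 ratio of 1.87 there.

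Beside the lists that follow, 2.21% of all genes tested were higher in ENC 3′ and 2.76% lower. Of 15 Schwann precursor and glial genes, 2 were higher and 4 lower. S100B was among the higher members, and TTYH1, MOXD1 (64.9 against 108 CPM pooled) and SOX2 (14.4 against 23.3) were among the lower. Of 8 enteric progenitor genes, EDNRB was higher, and L1CAM, an adhesion protein of migrating enteric crest, and GFRA1, the GDNF co-receptor, were lower at 3.90 and 15.9 CPM against 10.8 and 27.7 CPM pooled. RET, the GDNF receptor, had 0 UMIs in ENC 3′, which allows up to 0.366 CPM. Of the receptors and factors that the study followed, ETV1 was at 5.86 against 11.2 CPM pooled, ERBB2 at 10.6 against 9.91, and PDGFRA and PDGFRB each at 0.976 CPM. No HOX gene of the 18 listed reached 10 CPM.

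Amino acid synthesis and stress genes driven by ATF4 were on the lower side, where 9 of 23 were at least 1.5-fold lower and 0 higher (median -0.45). Over all genes tested, 2.76% were lower. ASNS, asparagine synthetase, was at 35.4 CPM (31.4 to 39.7) against 108, 62.9 and 43.5 CPM. PSAT1 and MTHFD2, of serine synthesis and mitochondrial folate metabolism, were at 66.3 and 39.7 CPM against 132 and 75.9 CPM pooled. In ENC 4′ alone they were at 81.8 and 41.6 CPM, within the fold of ENC 3′. The transporter SLC7A5 was at 6.10 CPM against 16.2 CPM pooled, while ATF4 itself was within the fold at 151 against 171 CPM. The summed level of the list was 1451 CPM in ENC 3′, 1578 in ENC 2′, 2147 in ENC 1′ and 2714 in ENC 4′.

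Some members of the signalling lists passed the fold, beside 2.21% of all genes tested that were higher and 2.76% that were lower. Of 10 WNT feedback and receptor genes, 2 were lower, SFRP1 and LRP6. Of 7 BMP and TGF-beta genes, 2 were lower, ID3 and ID2 (5.61 against 10.6 CPM pooled). Of 11 FGF and ERK response genes, PHLDA1 and MYC were higher and FGFBP3 and DUSP6 lower. Of 6 Notch genes, 0 passed the fold in either direction. Extracellular matrix genes went both ways, with 2 of 15 higher (BCAN and SPARC) and 5 lower, among them COL2A1 at 3.05 CPM against 14.8 CPM pooled. NQO1, a quinone reductase of oxidative stress, was at 48.9 CPM against 18.8 CPM pooled, and HLA-E, an MHC class I molecule, at 40.1 against 19.6 CPM.

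The deposited phase calls placed 354 of the 727 ENC 3′ cells in G1, or 48.7% (45.0 to 52.4%). S phase took 254 cells, or 34.9% (31.5 to 38.5%), and G2M the other 119, or 16.4% (13.8 to 19.3%). The G1 share lay above those of ENC 1′ (32.8%) and ENC 2′ (28.6%), outside their intervals, and below that of ENC 4′ (86.2%). Scored again with scanpy over the numbered cells, G1 was 44.6% in ENC 3′ and 24.3% in the pooled others. Of 40 S and 50 G2M genes tested, 0 passed the fold in either direction, with medians of -0.22 and -0.21, and 37 and 48 had negative ratios. Of 8 replication histone genes, 4 were lower, such as HIST1H4C at 1273 CPM against 2041 CPM pooled. The list median was -0.54, and 2.76% of all genes tested were lower. Once the CDKN1A-led cells described below were left out, 0 of 8 passed the fold, with a median of -0.45. Within G1 cells alone, where 3.53% of all genes tested were higher and 5.65% lower, 11 of 34 S and 14 of 26 G2M genes were lower in ENC 3′ and 0 higher. There TOP2A was at 18.6 CPM (14.4 to 23.6) against 72.7 CPM in the pooled others. MKI67, a proliferation marker, was at 5.27 CPM (3.17 to 8.23) against 24.4 CPM. Of the 354 ENC 3′ cells in G1, 90 were CDKN1A-led, and the G1 comparison was not repeated without them. The phase calls had themselves been scored from S and G2M genes.

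**Figure D4:**
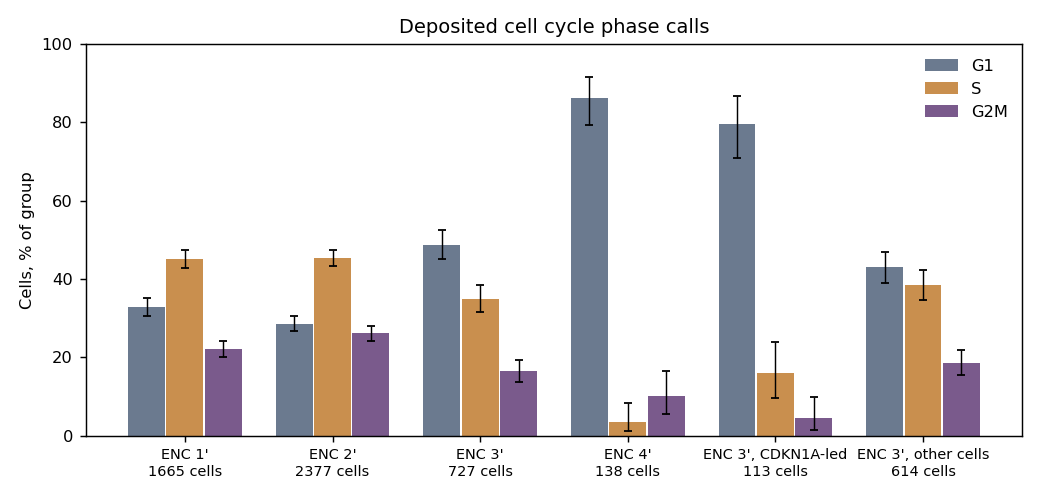
Bars give the share of cells in G1, S and G2M by the deposited calls, with exact 95% binomial intervals, for the 4 subclusters and for ENC 3′ split into its CDKN1A-led and other cells. ENC 3′ has a G1 share of 48.7%, its 113 CDKN1A-led cells 79.6% and its other 614 cells 43.0%.

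The pigment genes were present in each phase of ENC 3′. MLANA was at 117 CPM in G1 (106 to 129), 85.2 in S and 72.2 in G2M (59.8 to 86.5), against 7.47, 2.97 and 4.65 CPM in the pooled others. PMEL was at 509, 584 and 583 CPM in the same order. DCT was at 56.9 CPM in G1, 63.6 in S and 20.8 in G2M (14.4 to 29.1), so its G2M level was the lowest of the 3.

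Single ENC 3′ cells varied widely. At 3000 UMIs, the sum of MLANA, DCT and PMEL had a median of 1 UMI, with 192 cells at 0, 343 of 727 at 2 or more and a highest value of 21. In ENC 2′, 81.9% of cells were at 0, against 26.4% in ENC 3′. A MLANA UMI was seen in 21.9% of thinned ENC 3′ cells (18.9 to 25.1%), against 0.961% in ENC 1′, 1.68% in ENC 2′, 5.07% in ENC 4′ and 0 of 104 NEP cells. PMEL was seen in 64.6% of ENC 3′ cells, but also in 39.4% of CP1 placode cells and 6.73% of NEP cells, so PMEL alone does not mark ENC 3′.

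**Figure D5:**
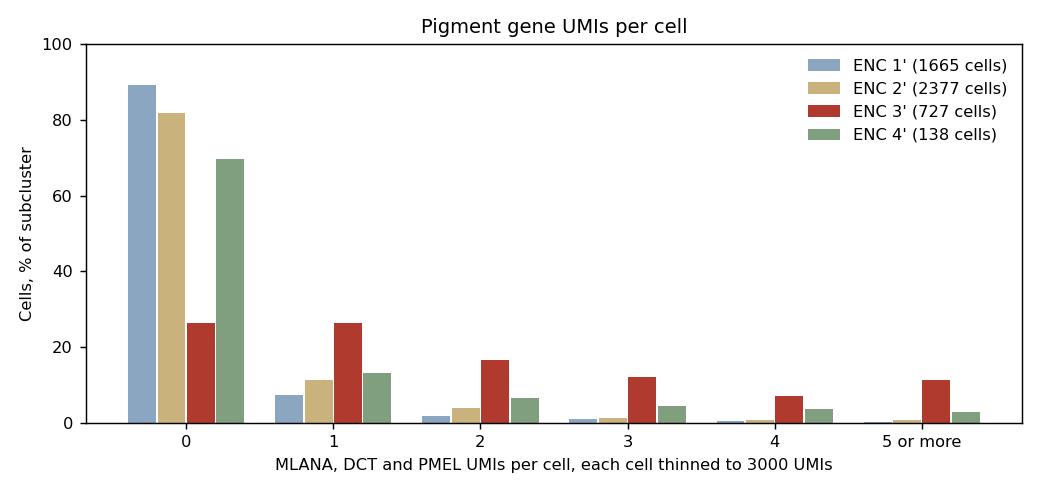
Bars give the share of cells in each subcluster with 0, 1, 2, 3, 4, or 5 or more UMIs of MLANA, DCT and PMEL together, each cell thinned to 3000 UMIs. In ENC 3′ 26.4% of cells are at 0 and 11.4% at 5 or more, while 89.2% of ENC 1′ and 81.9% of ENC 2′ cells are at 0.

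At full depth, 90.5% of ENC 3′ cells (88.1 to 92.5%) had a UMI of at least 1 of the 3 genes. The same share was 23.1% in ENC 1′, 35.8% in ENC 2′, 47.1% in ENC 4′, 12.5% in NEP and 66.3% in CP1 cells, at median depths of 10290 to 11734.5 UMIs, so part of it is not particular to ENC 3′. A MLANA UMI was found in 47.2% of the 195 cells with a DCT UMI (40.0 to 54.4%) and in 44.5% of the 532 without (40.3 to 48.9%), so detection of 1 gene told little of the other at this depth. It was found in 49.7% of the 630 cells with a PMEL UMI and 16.5% of the 97 without, whose median depths were 11131.5 and 9875 UMIs.

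When the numbered cells were clustered again, the new cluster with most ENC 3′ cells at resolution 0.5 held 642 of the 727, and 92.4% of its 695 cells were ENC 3′. Of the 19 nearest neighbours of an ENC 3′ cell, on average 69.8% were ENC 3′, 22.6% ENC 2′, 7.20% ENC 1′ and 0.413% ENC 4′. At resolution 0.3 the cells spread over 3 clusters of 408, 206 and 113 ENC 3′ cells. The last cluster had 116 cells in all and was led by CDKN1A, the p53-induced inhibitor of the cell cycle. These 113 cells were set beside the other 614 as a description, since the genes had shaped the clusters.

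CDKN1A was at 125 CPM in the 113 cells (106 to 147) and 5.16 CPM in the 614 (3.61 to 7.14). MDM2, the p53 ubiquitin ligase and p53 target, was at 158 against 22.2 CPM, FDXR at 73.5 against 8.88 CPM, and BAX, a promoter of apoptosis, at 230 against 82.6 CPM. Of 6683 genes tested between the pieces, 5.94% were at least 1.5-fold higher in the 113 cells and 13.6% lower. Of 19 p53 and arrest genes, 15 were higher, while 47 of 50 G2M genes were lower, such as TOP2A at 74.3 against 264 CPM. Of the melanoblast genes, DCT was at 58.6 and 51.0 CPM in the 113 and the 614 cells, MITF at 82.5 and 83.9 and EDNRB at 105 and 102, with overlapping intervals. MLANA was lower in the 113 cells at 74.3 CPM (59.7 to 91.3) against 101 (93.4 to 108), and PMEL at 335 against 588 CPM. At 3000 UMIs, 48.7% of the 113 cells and 22.3% of the 614 had no UMI of MLANA, DCT or PMEL. The deposited calls put 79.6% of the 113 in G1 and 43.0% of the 614.

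Some list counts of ENC 3′ depended on the CDKN1A-led cells. Over all 727 cells, 3 of 16 p53 and arrest genes were higher than in the pooled others, CDKN1A among them at 22.9 against 9.12 CPM. Without the 113 cells, 0 of 15 were higher, and CDKN1A had a log2 ratio of -0.72. The melanoblast count stayed at 5 of 6 without them, with MLANA and DCT again tested only through ENC 3′. The ATF4 count was 7 of 23. Over all genes, 2.22% were then higher and 2.55% lower.

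At day 10, no numbered ENC subcluster had these levels. Of the 4 day 10 subclusters, MLANA was at 0.479 CPM in ENC 1, 0.247 in ENC 2 and 0 in ENC 3 and ENC 4, where 3 counts allow up to 1.34 and 2.17 CPM. DCT was at 0.740 to 1.78 CPM in the first 3 and 0 in ENC 4, and PMEL ran from 5.79 to 20.9 CPM. MITF was at 5.79 to 20.4 CPM, EDNRB at 12.3 to 40.5 and SNAI2 at 23.9 to 43.1. ID3, low in ENC 3′, was at 638 to 1000 CPM there. The stages were separate libraries with different culture formats, so stage and library cannot be told apart.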

How the data were processed

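The submitters' processing notes name Cell Ranger and Seurat 4.0.4 and the build GRCh38, while the study's methods describe kallisto and bustools for alignment. Gene counts per cell (UMIs, whole numbers, not normalized) were used as deposited. The deposited annotation gave cell type, subtype, phase, counts per cell and the percent of mitochondrial and ribosomal UMIs, all set by the authors. The deposited novelty score, a fraction, was not used. The authors' limits had removed 984 of 6320 day 15 cells. The study's methods describe antibody-tagged cells that were pooled for sequencing. The deposited cells carry no repeat label, so any biological repeats cannot be separated here. The members and gene lists were chosen with earlier results of these data known, and 2 lists were added after values were seen.

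UMIs were summed per subcluster and scaled to 1000000 (CPM). Ratios are log2 of CPM + 1. Genes needed 10 CPM in ENC 3′ or in the pooled others, and 1.5-fold was the limit for a difference. Named genes were the 15 largest and 15 smallest ratios among genes with at least 50 CPM and a UMI in 10% of that group's cells (mitochondrial and ribosomal protein genes left out), the 10 largest and 5 smallest at 10 to 50 CPM, SOX10, ERBB3, BNC2, and up to 4 members per list. Cells were thinned at random to 3000 UMIs for shares of cells, and no ENC 3′ cell was shallower. Clustering was repeated with Seurat 5.3.0 (2000 variable genes, 21 components). TMM used edgeR 4.0.16, and phases were rescored with scanpy 1.11.5. No doublet caller was run here. A level or share of 0 is given with the limit that 3 counts allow. Counting was tested on simulated data. Many named genes overlap genes on the other strand, among them MLANA, PMEL, SOX10, GPR143, MITF, EDNRB, CD68, ACP5, CTSD, TTYH1 and CDKN1A. Whether counting used strand is not given in the sources used here. Some genes of the lists are not reported here.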

Additional observations from a re-analysis of the deposited data

Results flagged for a closer look

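Pigment genes were also counted in data that no comparison used, the 984 day 15 cells that the quality filters had removed. There MLANA was at 8.28 CPM (204 UMIs, 7.19 to 9.50), DCT at 4.22 CPM (104 UMIs, 3.45 to 5.12) and PMEL at 123 CPM (3026 UMIs, 119 to 127). Each was above the 0.122 CPM that 3 counts allow, and MLANA and DCT were far under their ENC 3′ levels. The removed cells carry no subtype, so they were assigned to none.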

How the results depend on the processing

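The 146 higher and 183 lower genes moved most with the minimum and with depth. The counts were 478 and 665 with no minimum, 34 and 42 at a minimum of 50 CPM, 250 and 311 with scaling outside mitochondrial and ribosomal protein genes (which lifts every CPM and so tests more genes), 258 and 390 after thinning to 3000 UMIs, and 226 and 362 in G1 cells only. The lower count alone moved to 98 with a pseudocount of 5 CPM, 284 with equal weight for the other 3 subclusters and 340 without the deepest 25% of ENC 3′ cells, and the cause was not tested. TMM gave 171 and 146, which turns the majority of calls from lower to higher. With equal weight, 10 of the 15 top higher genes and 3 of the 15 top lower genes stayed among them. In 480 comparisons over 48 named genes, no gene past the fold changed sign, and 143 values moved beyond their counting interval. The share of 14.8% was 47.9% at resolution 0.3, where no cluster matched ENC 3′, 13.7% at 0.8 and 13.6% over all kept cells. Outside mitochondrial and ribosomal protein genes, SOX10, ERBB3 and BNC2 were at 173, 171 and 14.7 CPM. G1 was 44.6% with scanpy and 57.2% with Seurat, S 25% with Seurat and G2M 19.9% with scanpy. Without the CDKN1A-led cells, an alternative chosen after seeing the data like the Seurat rescoring, G1 was 43.0% and the gene counts were 147 and 169. Those cells decide the calls of the p53 list (3 higher with them, 0 without) and the replication histones (4 lower, then 0). They also decide those of the glycolysis and hypoxia list (2 lower, then 0). The replication histone median was -0.54 with them and -0.45 without. No paired analysis was possible because each stage is 1 library with 1 replicate number, and no replicate could be left out.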

Other observations

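The 27 ENC cells outside the numbered subclusters held 1 MLANA UMI, 0 DCT UMIs and 47 PMEL UMIs among 310468, where 3 counts correspond to 9.66 CPM.

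ENC 4′ was the subcluster closest to ENC 3′ in MITF, EDNRB, RAB38 and NEAT1, although nearest-neighbour counts placed few ENC 3′ cells beside it. Of the neighbours of ENC 4′ cells, 4.58% were ENC 3′ cells, 25.1% ENC 1′ and 7.86% ENC 2′.

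Further pigment genes under the minimum had most of their UMIs in ENC 3′. GPNMB, a melanosome glycoprotein, had 59 UMIs in ENC 3′ (7.20 CPM) against 0.380 CPM pooled, and TRPM1, a channel gene of melanocytes, had 66 UMIs (8.05 CPM) against 0.570 CPM. BIRC7, an inhibitor of apoptosis found in melanoma, was tested and stood at 29.5 CPM against 11.8 CPM pooled. These 3 were chosen after their values were seen. MIA, also known from melanoma and not among them, went the other way at 3.17 against 16.4 CPM pooled.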
